A study of Homo sapiens with 72 samples.

Results

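The genes described here are 4 RAS guanyl-releasing proteins, RASGRP1, RASGRP2, RASGRP3 and RASGRP4, and 3 diacylglycerol kinases, DGKA, DGKZ and DGKH. They were listed by name as genes whose proteins hold a diacylglycerol-binding domain. The rule itself uses no measured value, but the list was drawn up with earlier results of these data known. All 7 were found among the 20033 protein-coding genes of chromosomes 1 to 22, X and Y in GENCODE 44 (hg38). RASGRP1 (ENSG00000172575.14) lies at chr15:38488103-38565575 on the minus strand, RASGRP2 (ENSG00000068831.19) at chr11:64726911-64745456 on the minus strand, RASGRP3 (ENSG00000152689.18) at chr2:33436324-33564750 on the plus strand and RASGRP4 (ENSG00000171777.17) at chr19:38409051-38426305 on the minus strand. DGKA (ENSG00000065357.20) lies at chr12:55927319-55954027, DGKZ (ENSG00000149091.15) at chr11:46332905-46380554 and DGKH (ENSG00000102780.17) at chr13:42040036-42256578, all on the plus strand.

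Diacylglycerol is a membrane lipid that is released from phosphoinositides by phospholipase C after antigen receptor stimulation, and it recruits proteins with a C1 domain to the membrane. RASGRP proteins are exchange factors that load RAS or RAP GTPases with GTP, and RASGRP1 and RASGRP3 are best known from lymphocytes, RASGRP2 from platelets and blood cells, and RASGRP4 from mast cells and other myeloid cells. Diacylglycerol kinases end the signal by phosphorylating diacylglycerol to phosphatidic acid, so the genes described here encode both readers and removers of the same lipid. Bryostatin is a macrolactone from a marine bryozoan that binds C1 domains in the place of diacylglycerol.

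Cut&Tag libraries, in which an antibody-guided transposase tags the chromatin that carries a histone mark, were made from Raji, NALM6 and REH cells. Raji is a Burkitt lymphoma line, and NALM6 and REH are B cell precursor acute lymphoblastic leukemia lines. Each line was either untreated or kept in 1 nM bryostatin, overnight by the sample labels, and 3 replicates were profiled for each of H3K4me2, H3K4me3 and H3K27me3. This gave 18 groups of 3 and 54 libraries. H3K4me3 marks promoters in use, H3K4me2 marks promoters and enhancers, and H3K27me3 is the mark of Polycomb repression. Each line is an established culture, and the labels do not say whether replicates were separate cultures, so the spread between replicates may be technical. The 18 IgG samples were not used here.

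The files list peaks called in each library, with 7130 to 22540 peaks for H3K4me2, 4389 to 12798 for H3K4me3 and 590 to 101702 for H3K27me3. The depth read from the steps of the signal was 6700000 to 23400000 reads for H3K4me2, 5410000 to 47900000 for H3K4me3 and 5120000 to 38900000 for H3K27me3 in 48 libraries. The 6 libraries of NALM6 replicate 1 carry another scaling, and their depth is unknown. Their H3K4 peaks were also shorter. For untreated H3K4me2 the median length was 768 bp in replicate 1, against 3210 and 1960 bp in replicates 2 and 3. For untreated H3K4me3 it was 916.5 bp against 2340 and 2070 bp. A library without a peak is one in which the signal did not pass the peak caller, and not one shown to lack the mark. All 6 B lineage markers tested (such as PAX5 and EBF1) had an H3K4me2 start peak in at least 5 of 6 libraries of every line. H3K4me3 at the mature B cell genes MS4A1 and CR2 was called in 6 of 6 Raji libraries and in 0 NALM6 and REH libraries. At the precursor gene DNTT it was called in 0 Raji, 5 NALM6 and 6 REH libraries. Of 5 mature genes, 5 in Raji, 1 in NALM6 and 2 in REH had H3K4me3 in at least 5 of 6 libraries. Of 5 precursor genes, these counts were 1, 4 and 4. Mature CIITA and precursor RAG1 had it in 6 of 6 libraries of every line. Mature BCL6 had it in 6 Raji, 3 NALM6 and 6 REH libraries, and precursor VPREB1 in 0, 6 and 0. None of 12 markers of other cell types had H3K4me3 in 5 or more libraries of a line, and 7 of them (CD3D, CD3E, CD3G, LYZ, CD14, GATA1 and EPCAM) had no peak of either H3K4 mark. H3K4me2 was called in 5 or more libraries at 2 of the 12 in Raji, 1 in NALM6 and 3 in REH. These were CD247, the zeta chain of the T cell receptor, in 6 of 6 libraries of every line and with H3K4me3 in 4 NALM6 and 4 REH libraries, COL1A1, a collagen, in 6 Raji and 6 REH libraries, and CSF1R, a myeloid growth factor receptor, in 6 REH libraries. MPO, a granule enzyme of myeloid cells, had H3K4me2 in 4 REH libraries.

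An H3K27me3 library stood apart from the rest. In Raji untreated replicate 2, H3K27me3 peaks lay at the starts of 88.8% of the 10399 genes that carried H3K4me3 in Raji, while the other H3K27me3 libraries had peaks at 0.404% to 16.8% of the H3K4me3-marked starts of their line. Counts of H3K27me3 that this library enters are therefore given also without it.

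Starts within 2 kb of each other were joined into start groups, named by their distance along the gene from its first base. To show what lies at the starts that the results below turn on, the 250 bases before the RefSeq start are given (GRCh38.p14), 5′ to 3′ on the strand of the gene, with CpG dinucleotides in capitals. Among 35116 promoters of 27305 genes the median was 11 CpG, with quartiles of 3 and 23. The promoters of RASGRP1, RASGRP2 and RASGRP4 are those of the first start group, and that of RASGRP3 belongs to the start group at +40.3 kb, which holds its canonical transcript. For DGKZ the first start group and the canonical one at +14.6 kb are shown since they carried different marks, and for DGKH the canonical group at +8.6 kb is shown since it differed most between lines.
RASGRP1, chr15:38564815-38565064, minus strand, 28 CpG: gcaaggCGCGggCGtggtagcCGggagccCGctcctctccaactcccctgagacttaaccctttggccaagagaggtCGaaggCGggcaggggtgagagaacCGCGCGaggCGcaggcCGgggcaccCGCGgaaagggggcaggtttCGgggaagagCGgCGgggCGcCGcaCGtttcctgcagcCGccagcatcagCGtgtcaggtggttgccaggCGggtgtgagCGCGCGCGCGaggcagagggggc
RASGRP2, chr11:64745349-64745598, minus strand, 13 CpG: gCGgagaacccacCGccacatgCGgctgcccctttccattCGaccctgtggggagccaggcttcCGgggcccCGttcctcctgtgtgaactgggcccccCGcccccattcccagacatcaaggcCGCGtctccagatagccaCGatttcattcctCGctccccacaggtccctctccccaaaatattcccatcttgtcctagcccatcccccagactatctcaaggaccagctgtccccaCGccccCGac
RASGRP3 at +40.3 kb, chr2:33476399-33476648, plus strand, 8 CpG: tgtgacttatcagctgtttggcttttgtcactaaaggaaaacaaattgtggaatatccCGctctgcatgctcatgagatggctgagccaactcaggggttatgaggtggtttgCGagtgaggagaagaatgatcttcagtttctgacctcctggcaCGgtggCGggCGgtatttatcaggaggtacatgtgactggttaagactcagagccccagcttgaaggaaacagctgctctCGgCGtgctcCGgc
RASGRP4, chr19:38426220-38426469, minus strand, 9 CpG: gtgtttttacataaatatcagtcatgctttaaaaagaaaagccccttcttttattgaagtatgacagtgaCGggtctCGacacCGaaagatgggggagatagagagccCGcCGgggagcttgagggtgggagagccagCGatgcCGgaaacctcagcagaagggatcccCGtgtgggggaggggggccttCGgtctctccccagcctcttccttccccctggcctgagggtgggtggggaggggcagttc
DGKZ first start, chr11:46332676-46332925, plus strand, 23 CpG: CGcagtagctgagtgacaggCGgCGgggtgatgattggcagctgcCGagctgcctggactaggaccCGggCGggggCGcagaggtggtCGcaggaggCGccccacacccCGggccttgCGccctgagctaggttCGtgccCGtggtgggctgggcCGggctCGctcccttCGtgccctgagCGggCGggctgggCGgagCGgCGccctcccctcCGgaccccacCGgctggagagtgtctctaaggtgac
DGKZ at +14.6 kb, chr11:46347213-46347462, plus strand, 32 CpG: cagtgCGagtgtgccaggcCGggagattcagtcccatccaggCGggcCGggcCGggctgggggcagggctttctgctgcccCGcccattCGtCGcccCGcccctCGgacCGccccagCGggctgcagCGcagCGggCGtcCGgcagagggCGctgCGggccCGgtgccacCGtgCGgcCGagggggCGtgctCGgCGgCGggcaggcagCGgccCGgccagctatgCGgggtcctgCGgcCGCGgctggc
DGKH at +8.6 kb, chr13:42048398-42048647, plus strand, 23 CpG: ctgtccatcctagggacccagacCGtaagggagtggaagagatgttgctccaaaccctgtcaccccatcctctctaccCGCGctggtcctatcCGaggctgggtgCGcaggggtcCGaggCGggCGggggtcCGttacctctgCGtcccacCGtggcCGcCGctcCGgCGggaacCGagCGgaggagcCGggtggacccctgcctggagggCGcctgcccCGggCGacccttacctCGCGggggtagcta

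The RASGRP promoters differed in CpG content. Of all promoters, 15.9% held at least as many CpG as the 28 of RASGRP1, 46.6% at least the 13 of RASGRP2, 54.1% at least the 9 of RASGRP4 and 56.3% at least the 8 of RASGRP3. The canonical DGKZ promoter was richer, with 9.52% of all promoters at or above its 32 CpG, and the DGKZ first start and the DGKH start at +8.6 kb were equal, with 25.8% at or above 23. Of 17 promoters of the 7 genes in the table, 0 held TGANTCA, a core motif of AP-1 factors, on either strand, against 6.57% of all promoters. CCGGAAG, a core motif of ETS factors, was found once in the RASGRP2 promoter and in 2 places in a promoter of the first DGKA start group, against 8.52% of all promoters with at least 1 match. A match or its absence in such a window is a description of letters.

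The genes fell into those with active marks in every library and those marked in some lines. For each gene and library, a peak was counted if it came within 1 kb of any start in the annotation. RASGRP2, DGKA, DGKZ and DGKH each had an H3K4me2 and an H3K4me3 start peak in all 18 libraries of that mark. RASGRP1 had H3K4me2 in 6 of 6 Raji, 6 of 6 REH and 1 of 6 NALM6 libraries, RASGRP3 in 6 Raji, 4 REH and 3 NALM6 libraries, and RASGRP4 in 5 REH libraries and no other. H3K4me3 was called at RASGRP1 in 6 Raji, 4 REH and 0 NALM6 libraries, at RASGRP3 in 6 Raji, 1 REH and 0 NALM6 libraries, and at RASGRP4 in 0 of 18. Of the 126 pairs of a gene and a library for each mark, 103 had H3K4me2, 89 had H3K4me3 and 26 had H3K27me3. For comparison, 27.5% to 62.4% of all protein-coding genes had an H3K4me2 start peak in a library, 26% to 58.2% had H3K4me3 and 0.963% to 57% had H3K27me3, or to 28.1% without the H3K27me3 library that stood apart.

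**Figure D1:**
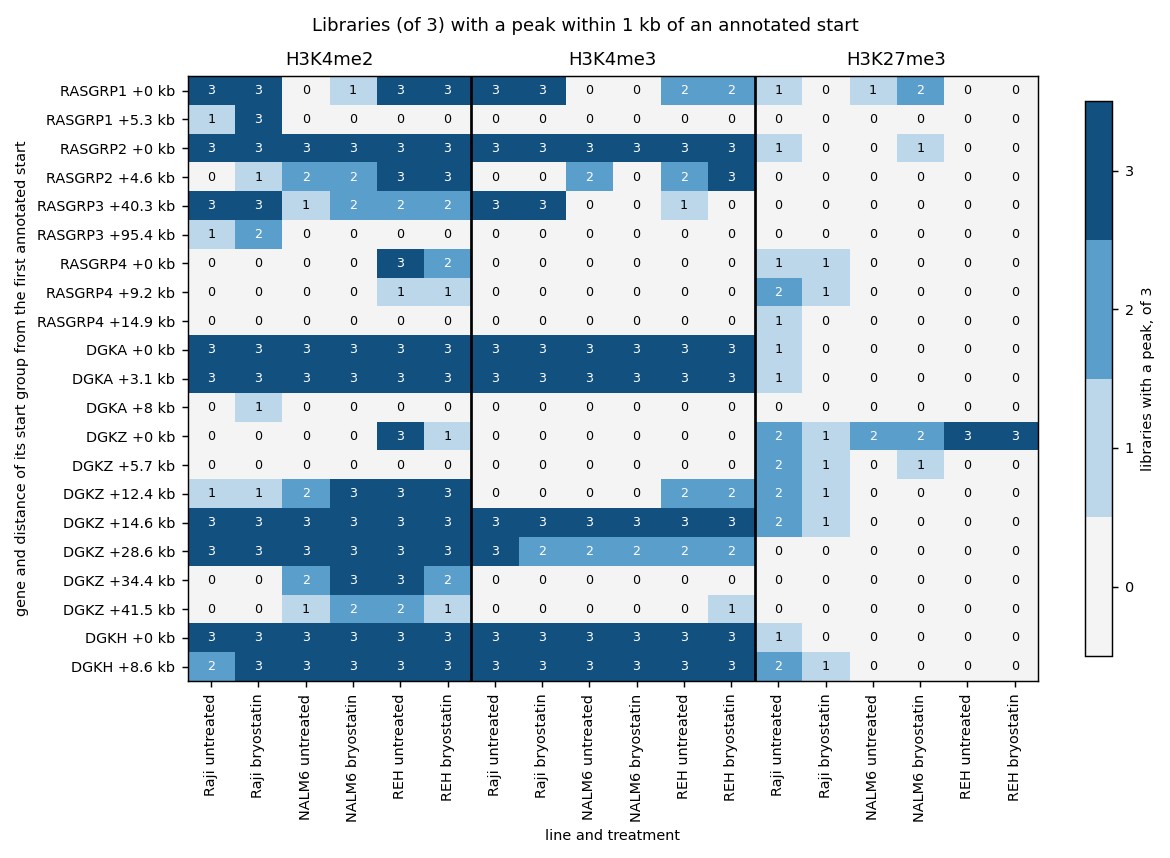
Number of libraries, of 3, with a peak within 1 kb of each start group of the 7 genes, by mark, line and treatment, for the start groups with a peak in any library. RASGRP2 +0 kb, DGKA +0 kb, DGKZ +14.6 kb and DGKH +0 kb show 3 of 3 for H3K4me2 and H3K4me3 in every group, RASGRP4 shows H3K4me2 in REH and in no other line, and H3K27me3 was most frequent at the first start of DGKZ.

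Untreated lines were first compared by presence, counting genes with a peak in 3 of 3 libraries of a line and in 0 of 3 of the other. Between Raji and REH this held for 1 of the 7 genes by H3K4me2, RASGRP4, which was marked in REH, and 12.4% of all genes with a peak in either line showed it. RASGRP1 and RASGRP4 met this rule between NALM6 and REH, both marked in REH, against 13.4% of all genes. Between Raji and NALM6 it held for RASGRP1, marked in Raji, against 10.8%. For H3K4me3 it held for 0 genes between Raji and REH (7.76% of all genes) and between NALM6 and REH (3.28%), and for RASGRP1 and RASGRP3, both marked in Raji, between Raji and NALM6 (7.5%). For H3K27me3 it held for 0 of 6 genes with a peak for Raji and REH (2.81% of all genes). It held for 0 of 2 for NALM6 and REH (19.6%) and 0 of 6 for Raji and NALM6 (0.707%). Without Raji untreated replicate 2 it held for 0 of the 7 in both Raji comparisons, against 7.73% and 2.17% of all genes. Counts of 0 to 2 genes are too few to set apart from these shares.

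Levels at the starts were then read as start signal, the summed total signal of the peaks that touch the window within 1 kb of a start group. It is given in multiples of the library's median over the regions called in all 18 libraries of the mark, which were 3214 for H3K4me2 and 3505 for H3K4me3. A value of 0 means that no peak was called.

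RASGRP1, an exchange factor for RAS, had its highest H3K4me2 start signal in Raji. The untreated Raji replicates were at 1.24, 0.797 and 1.44, the REH replicates at 0.763, 0.729 and 0.737, and all 3 NALM6 replicates at 0. The Raji values lay above every REH value, and the NALM6 values below both lines. With bryostatin, Raji was at 1.43, 1.40 and 1.34, REH at 0.738, 0.75 and 0.70, and NALM6 at 0, 0.269 and 0. H3K4me3 at the same start was low where it was called, with 0.395, 0.538 and 0.423 in untreated Raji and 0.281, 0 and 0.215 in untreated REH.

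RASGRP3, the exchange factor of the family that acts on both RAS and RAP, carried its marks at the start group at +40.3 kb and not at its first annotated start. In untreated Raji its H3K4me2 start signal was 1.37, 0.365 and 1.49, in REH 0.386, 0 and 0.243, and in NALM6 0.428, 0 and 0. Raji replicate 2, the shallowest Raji library at 6700000 reads, lay within the range of the other lines, so the groups overlapped. In bryostatin-treated Raji the values were 1.68, 1.81 and 1.29, above every REH and NALM6 library. H3K4me3 separated the lines in untreated cells, with 0.462, 0.719 and 0.58 in Raji against 0.0794, 0 and 0 in REH and 0 in all NALM6 replicates.

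RASGRP2, which activates RAP1, had strong start peaks of both H3K4 marks. For H3K4me2, untreated NALM6 replicates were at 4.16, 3.78 and 4.20, REH replicates at 3.57, 4.06 and 4.50 and Raji replicates at 3.31, 3.585 and 3.36. The lines lay close together in this mark. In H3K4me3 they did not, with 2.97, 3.02 and 3.10 in NALM6, 3.02, 3.14 and 3.79 in REH and 0.739, 1.24 and 1.39 in Raji. Every untreated Raji library lay below every NALM6 and REH library. The start of PYGM, on the same strand, lies upstream of RASGRP2 and outside this window.

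RASGRP4 was at 0 for H3K4me2 in all 12 Raji and NALM6 libraries, and at 0.294, 0.273 and 0.31 in untreated REH and 0.328, 0.379 and 0 in treated REH. These REH peaks were small and stood in each case under the median shared region. Peaks between +21.2 and +23.9 kb, beyond the end of the gene, lie at the start of its neighbour FAM98C and were not counted.

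**Figure D2:**
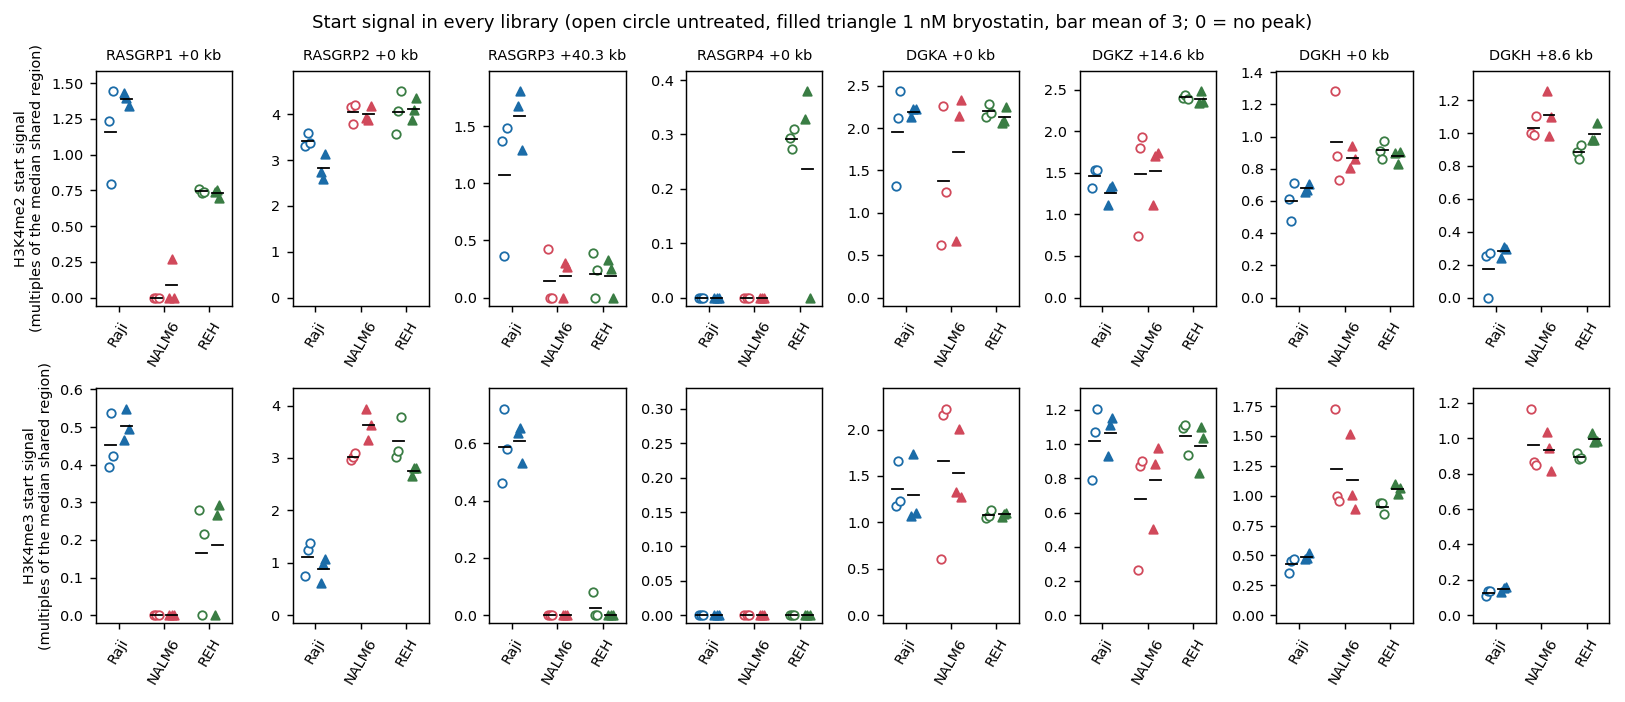
Start signal at selected start groups of each gene, by line, for H3K4me2 in the upper and H3K4me3 in the lower row, in multiples of the library's median shared region. DGKA is shown at its first start group and not at the canonical one at +3.1 kb. Open circles are untreated libraries, filled triangles bryostatin-treated ones, and bars the mean of 3. RASGRP1 and RASGRP3 have their highest values in Raji, RASGRP2 H3K4me3 and DGKH at +8.6 kb are lowest in Raji, and RASGRP4 H3K4me3 is at 0 throughout.

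Among the kinases, DGKA is the calcium-responsive isoform of lymphocytes. The first 5300 bases of DGKA overlap PYM1 on the other strand, so its start peaks are shared with that gene. The canonical DGKA start group lies at +3.1 kb, and the levels here are those of the first start group. Its H3K4me2 start signal at the first start group was 0.625, 2.26 and 1.24 in untreated NALM6, 2.13, 2.28 and 2.18 in REH and 1.32, 2.11 and 2.43 in Raji. The lines overlapped, and the lowest value belonged to NALM6 replicate 1. H3K4me3 gave 0.602, 2.16 and 2.22 in NALM6, 1.05, 1.07 and 1.13 in REH and 1.17, 1.66 and 1.24 in Raji.

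DGKZ, the kinase known to dampen RAS activation downstream of lymphocyte antigen receptors, was marked at several starts. At the canonical group at +14.6 kb, H3K4me2 was 2.40, 2.43 and 2.39 in untreated REH, 1.32, 1.53 and 1.54 in Raji and 0.744, 1.80 and 1.93 in NALM6. REH lay above every library of the other lines. At +28.6 kb the values were 1.50, 1.59 and 1.70 in REH, 1.19, 1.49 and 1.40 in Raji and 1.34, 1.42 and 1.80 in NALM6. A small H3K4me2 peak at +34.4 kb was called in NALM6 and REH libraries and in 0 Raji libraries, with up to 0.714 in untreated NALM6. H3K4me3 at +14.6 kb overlapped between the lines, with 1.10, 1.11 and 0.935 in REH, 0.789, 1.07 and 1.21 in Raji and 0.265, 0.874 and 0.902 in NALM6. A group at +41.5 kb lies in regions that also hold the start of MDK, and its signal cannot be assigned to DGKZ. Counts that include it are given also without it.

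DGKH has an annotated start at its first base and its canonical start at +8.6 kb, and both were lower in Raji. At +8.6 kb, H3K4me3 was 0.108, 0.139 and 0.135 in untreated Raji, 0.916, 0.881 and 0.889 in REH and 1.17, 0.866 and 0.849 in NALM6. At the first start it was 0.357, 0.453 and 0.471 in Raji, 0.94, 0.935 and 0.843 in REH and 1.73, 0.998 and 0.956 in NALM6. No Raji library reached a REH or NALM6 library at either start. H3K4me2 at +8.6 kb was 0.253, 0 and 0.27 in Raji, 0.882, 0.844 and 0.926 in REH and 0.998, 0.986 and 1.11 in NALM6.

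The line differences were tested with limma on the log2 signal of merged regions called in all 6 untreated libraries of a pair, with Benjamini-Hochberg adjustment over all regions and a threshold of 0.05. In H3K4me3, RASGRP2 and DGKH were lower in Raji than in both other lines. Of 5 regions at starts of the 7 genes, 3 passed between Raji and REH, where 51.3% of all 6729 regions passed. The DGKH region at +8.6 kb differed by -2.82 (SE 0.13, limma adjusted p = 2.9e-07), the DGKH first start by -1.10 (SE 0.11, adjusted p = 3.3e-05) and RASGRP2 by -1.61 (SE 0.20, adjusted p = 0.000126). DGKZ, at -0.06 with a 95% interval of -0.36 to 0.25, and DGKA, at 0.14 with an interval of -0.02 to 0.30, did not pass.

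Between Raji and NALM6, the same 3 of 5 H3K4me3 regions passed, where 20.2% of all regions did. The differences were -2.98 for DGKH at +8.6 kb (SE 0.21, limma adjusted p = 0.00021), -1.55 for its first start (SE 0.28, adjusted p = 0.0084) and -1.55 for RASGRP2 (SE 0.24, adjusted p = 0.0041). Both comparisons use the same untreated Raji libraries. Without NALM6 replicate 1, 5 regions passed, without Raji replicate 1 the DGKH first start did not, and without centring 0 of the 5 and 0 of all regions did. Between NALM6 and REH, 0 of 5 passed against 7.15% of all regions, and 1 passed without NALM6 replicate 1. The share of all regions is not given for the fits without a library, so their counts are not set apart from it. RASGRP1 and RASGRP3 were not called in all libraries of these pairs and RASGRP4 in none, so they stand outside the H3K4me3 fits.

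In H3K4me2, 5 of 6 regions passed between Raji and REH, where 46.8% of all 7999 regions passed. RASGRP1 was higher in Raji by 0.69 (SE 0.12, limma adjusted p = 0.00036). DGKZ at +12.4 to +14.6 kb was lower by -0.82 (SE 0.11, adjusted p = 3.5e-05), the DGKH first start by -0.72 (SE 0.15, adjusted p = 0.0016), RASGRP2 by -0.33 (SE 0.12, adjusted p = 0.033) and DGKZ at +28.6 kb by -0.33 (SE 0.12, adjusted p = 0.040). A count over 6 regions is too small to set apart from the 46.8% of all regions. DGKA differed by -0.05 with an interval of -0.27 to 0.17. The mean called length was shorter in Raji at 5 of the 6 regions and longer at RASGRP1, with 3593 bp in Raji and 2783 bp in REH. With the maximum signal of a region 1 of the 6 passed, RASGRP1, and with the mean signal per called base 0 passed. Without REH replicate 3, Raji replicate 1 or Raji replicate 3, 3 passed. RASGRP2 and DGKZ at +28.6 kb did not pass without REH replicate 2 or 3 or without Raji replicate 1 or 3, and RASGRP2 not without Raji replicate 2. Between NALM6 and REH, 0 of 7 passed against 11.4% of all regions, or 0 of 6 without the DGKZ region that also holds the start of MDK, and between Raji and NALM6, 0 of 5 against 18.9%. Without NALM6 replicate 1 these counts were 2 and 3, and without Raji replicate 2 the second was 1. In the bryostatin-treated libraries, which were compared after the untreated values had been seen, the counts were 6 for Raji and REH, 0 for NALM6 and REH and 3 for Raji and NALM6 in H3K4me2, and 3, 0 and 3 in H3K4me3. For the fits without a library or with treated libraries, the share of all regions is not given. Their counts are not set apart from it.

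**Figure D3:**
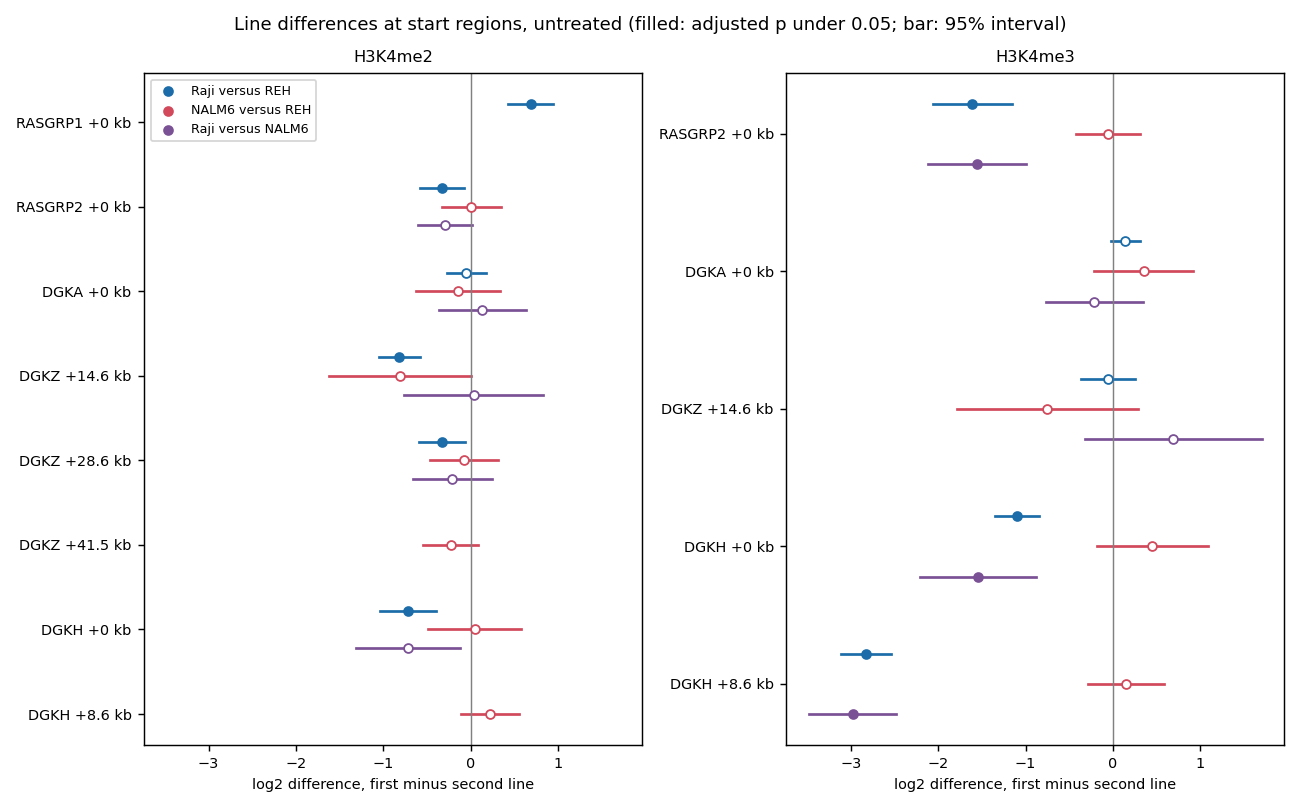
Log2 differences between untreated lines for each start region of the 7 genes that was called in all 6 libraries of a pair, with 95% intervals from limma. Filled points passed an adjusted p of 0.05. RASGRP2 and both DGKH regions lie below 0 in H3K4me3 for Raji against either other line, with DGKH at +8.6 kb lowest at -2.82 and -2.98.

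H3K27me3 was found most often at the first start of DGKZ and its extent along the gene differed between libraries. Since only 48 regions were called in all 18 H3K27me3 libraries, this signal is given in multiples of the library's own median peak, and levels are not compared between libraries. In REH the values were 18, 9.08 and 15.7 without and 7.20, 14.8 and 21.2 with bryostatin. NALM6 gave 0, 5.30 and 2.13 without and 0, 5.96 and 9.82 with bryostatin, and Raji 0, 2.27 and 20.1 without and 0, 0 and 4.64 with it. All 6 REH libraries had the peak. The 13 libraries with it held 7219 to 101702 peaks each, and the 5 without it 590 to 3424, so its absence moves with the number of peaks called and the part of this in the result was not tested.

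The REH peaks ran from between -4.19 and -3.35 kb to between 1.92 and 4.34 kb around the first base of DGKZ. None reached the canonical start at +14.6 kb, where H3K4me2 and H3K4me3 were called in the same line. A small H3K4me2 peak was also called at the first start in 4 of 6 REH libraries, with 0.23, 0.235 and 0.216 in the untreated ones, and in 0 NALM6 and Raji libraries. In Raji untreated replicate 3 a single H3K27me3 peak of 22330 bp ran from -7.57 to 14.76 kb, and in Raji bryostatin replicate 3 a run of 8 shorter peaks lay between -3.18 and 14.78 kb. In these Raji libraries the H3K27me3 peaks came up to the canonical start, which also carried H3K4me3 in Raji.

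RASGRP4 carried H3K27me3 in Raji, a line without its H3K4me2. Peaks covered 75.9% of the gene in Raji untreated replicate 3, 31.5% in untreated replicate 2, the library that stood apart, and 37.5% in bryostatin replicate 3. The other 3 Raji libraries, with 819 to 3424 peaks, had none, and neither had any REH or NALM6 library. DGKH, whose starts carried H3K4me2 and H3K4me3 in Raji, also had an H3K27me3 start peak in 2 untreated and 1 treated Raji libraries and in no other line. Its H3K27me3 peaks covered 1.71% of the gene in untreated replicate 2, 0.854% in untreated replicate 3 and 0.323% in bryostatin replicate 3. RASGRP1 carried H3K27me3 at its start in NALM6, the line that mostly lacked its H3K4me2, in untreated replicate 2 and bryostatin replicates 2 and 3, with 1.23, 1.22 and 1.96. Bryostatin replicate 3 of NALM6 held 78673 peaks with a median length of 380 bp. RASGRP2, with both H3K4 marks in NALM6, also had an H3K27me3 start peak in 1 treated NALM6 library. RASGRP3 had no H3K27me3 peak in any of 18 libraries, although it was unmarked by H3K4me3 in NALM6. Of the 26 pairs of a gene and a library with H3K27me3, 20 remain without Raji untreated replicate 2, which alone gave the peak at DGKA and the Raji peaks at RASGRP1 and RASGRP2.

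**Figure D4:**
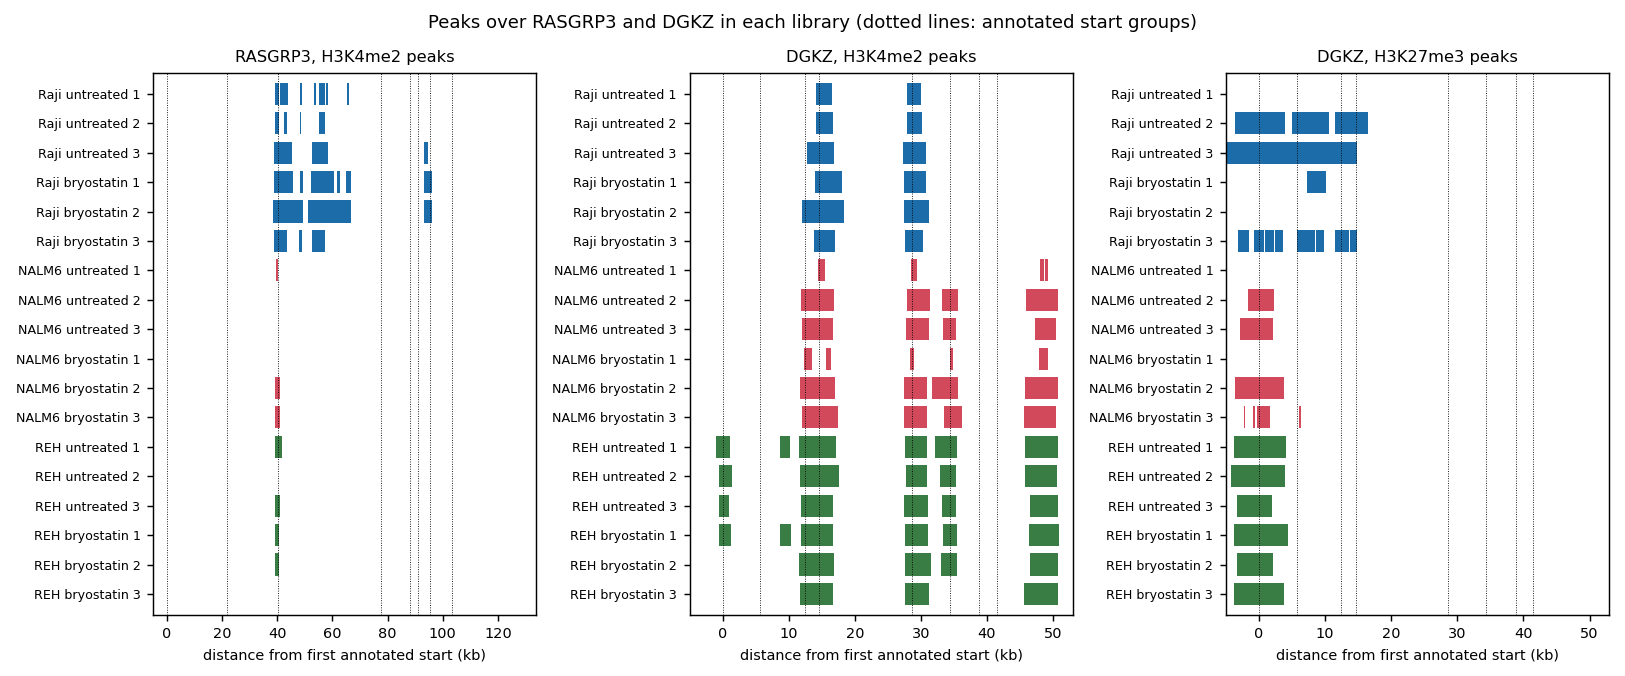
Called H3K4me2 peaks along RASGRP3 and H3K4me2 and H3K27me3 peaks along DGKZ, with 1 row for each library, colored by line, against the distance in kb from the first annotated start. Dotted lines are start groups. H3K4me2 in RASGRP3 extends past the start at +40.3 kb in Raji libraries, and H3K27me3 in REH lies around the first start of DGKZ and ends by 4.34 kb.

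RASGRP3 showed H3K4me2 inside the gene in Raji. Peaks that touch no start window were called with centres from +42.9 to +65.9 kb in all 6 Raji libraries and in 0 of 12 NALM6 and REH libraries. The broadest was a peak of 15570 bp in Raji bryostatin replicate 2. Summed over the gene, H3K4me2 signal was 2.49, 1.95 and 2.77 in untreated Raji, 0.386, 0 and 0.243 in REH and 0.428, 0 and 0 in NALM6, so Raji lay above both lines in every replicate. With bryostatin, Raji was at 3.62, 4.35 and 2.43, which overlapped the untreated values. The treated Raji H3K4me2 libraries were deeper, at 15600000, 18800000 and 16100000 reads against 8310000, 6700000 and 13900000, and the part of depth in this was not tested.

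Signal summed over whole genes was compared between untreated lines by an exact permutation test, two-sided. With 3 libraries against 3 its smallest p is 0.1, so no single gene could pass 0.05. Groups that do not overlap have that p. For H3K4me2 this held between Raji and REH for 5 of 7 genes, against 49.7% of all genes. RASGRP1 and RASGRP3 were higher in Raji, with means of 1.27 against 0.717 and 2.40 against 0.210, and RASGRP4, DGKZ and DGKH lower, with DGKZ at 2.82 against 5.14, or 4.64 in REH without the peaks at the start of MDK. For NALM6 and REH it held for 3 genes (35.6% of all genes), with RASGRP1, RASGRP4 and DGKZ lower in NALM6. Without the peaks at the start of MDK the DGKZ libraries of NALM6 and REH overlapped, with means of 3.52 and 4.64. Between Raji and NALM6 it held for 4 of 6 (35.9%), with RASGRP1 and RASGRP3 higher in Raji and RASGRP2 and DGKH lower.

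For H3K4me3 summed over genes, 5 of 6 genes did not overlap between Raji and REH (47.3% of all genes), with RASGRP1 and RASGRP3 higher in Raji and RASGRP2, DGKZ and DGKH lower. Between NALM6 and REH this was DGKA alone, higher in NALM6 (29.5%), and between Raji and NALM6 4 of 6 (41.7%), with RASGRP1 and RASGRP3 higher and RASGRP2 and DGKH lower. H3K27me3 sums are in units of each library's own median peak. Whether they overlap depends on those units too, so it is given as a description and not as a difference in level. No gene was without overlap between Raji and REH (5.49% of all genes) or Raji and NALM6 (1.05%), and none without Raji untreated replicate 2 (11.4% and 2.32%). Between NALM6 and REH the sums of DGKZ did not overlap (28.8%), and NALM6 replicate 1, at 0 there, is a library of 1444 peaks.

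No start region tested of the 7 genes changed with bryostatin past the test in any line. Only regions called in all 6 libraries of a line were tested. RASGRP4 was therefore tested in no line and RASGRP3 in Raji alone. RASGRP1 was tested in Raji and, for H3K4me2 only, in REH. In limma fits of treated against untreated libraries, 0 of 7 member regions passed in Raji for H3K4me2 (0% of all regions passed), 0 of 7 passed in NALM6 (0%) and 0 of 8 passed in REH (1.45%). The H3K4me3 fits gave 0 of 7 for Raji (0.155%), 0 of 5 for NALM6 (0%) and 0 of 7 for REH (1.67%). With replicate pairs as a block the members stayed at 0, and the shares of all regions were 2.83% for H3K4me2 in REH and 1.46% and 2.79% for H3K4me3 in Raji and REH. Without the DGKZ region that also holds the start of MDK, the H3K4me2 counts were 0 of 6 for NALM6 and 0 of 7 for REH, and the H3K4me3 count for REH was 0 of 6. The fits with 0 calls over all regions held 626 regions for H3K4me2 in Raji, 56 for H3K4me2 in NALM6 and 7 for H3K4me3 in NALM6 with an unadjusted limma p under the threshold. The single-region 95% intervals of the tested regions, from the fits without the block, bound what could have been missed in those regions alone. They lay within -0.29 and 0.33 for H3K4me2 and within -0.47 and 0.36 for H3K4me3 in REH, within -0.59 and 0.59 and within -0.83 and 0.68 in Raji, and within -1.73 and 1.27 and within -0.82 and 1.53 in NALM6, all on the log2 scale.

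In 8 member regions the treated and untreated libraries did not overlap, without passing the adjustment. The H3K4me2 fit of Raji held 1 such region of 7 (10.7% of all regions tested), that of NALM6 held 0 of 7 (10.4%) and that of REH 1 of 8 (14.7%). The H3K4me3 fit of Raji held 1 of 7 (12.4%), that of NALM6 1 of 5 (5.11%) and that of REH 4 of 7 (17.6%), of which 3 remain without the DGKZ region at the start of MDK. DGKH at its first start had H3K4me3 of 1.10, 1.01 and 1.07 in treated REH against 0.94, 0.935 and 0.843, a difference of 0.22 (SE 0.06, limma adjusted p = 0.132). RASGRP2 had 2.66, 2.80 and 2.80 against 3.02, 3.14 and 3.79 in REH, a difference of -0.26 (SE 0.10, adjusted p = 0.317). In NALM6 its treated H3K4me3 values of 3.93, 3.34 and 3.63 lay above the untreated ones, by 0.26 (SE 0.19, adjusted p = 0.9996).

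RASGRP2 H3K4me2 in Raji was 2.75, 2.58 and 3.14 with bryostatin against 3.31, 3.585 and 3.36 without, a difference of -0.31 (SE 0.13, limma adjusted p = 0.718). DGKH H3K4me3 at +8.6 kb was 0.24 higher with bryostatin in Raji (SE 0.19, adjusted p = 0.931) and 0.16 higher in REH (SE 0.06, adjusted p = 0.333). The DGKZ region at the start of MDK was at -0.18 in H3K4me3 in REH (SE 0.07, adjusted p = 0.314), and RASGRP1 H3K4me2 in REH at -0.06 (SE 0.08, adjusted p = 0.867).

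**Figure D5:**
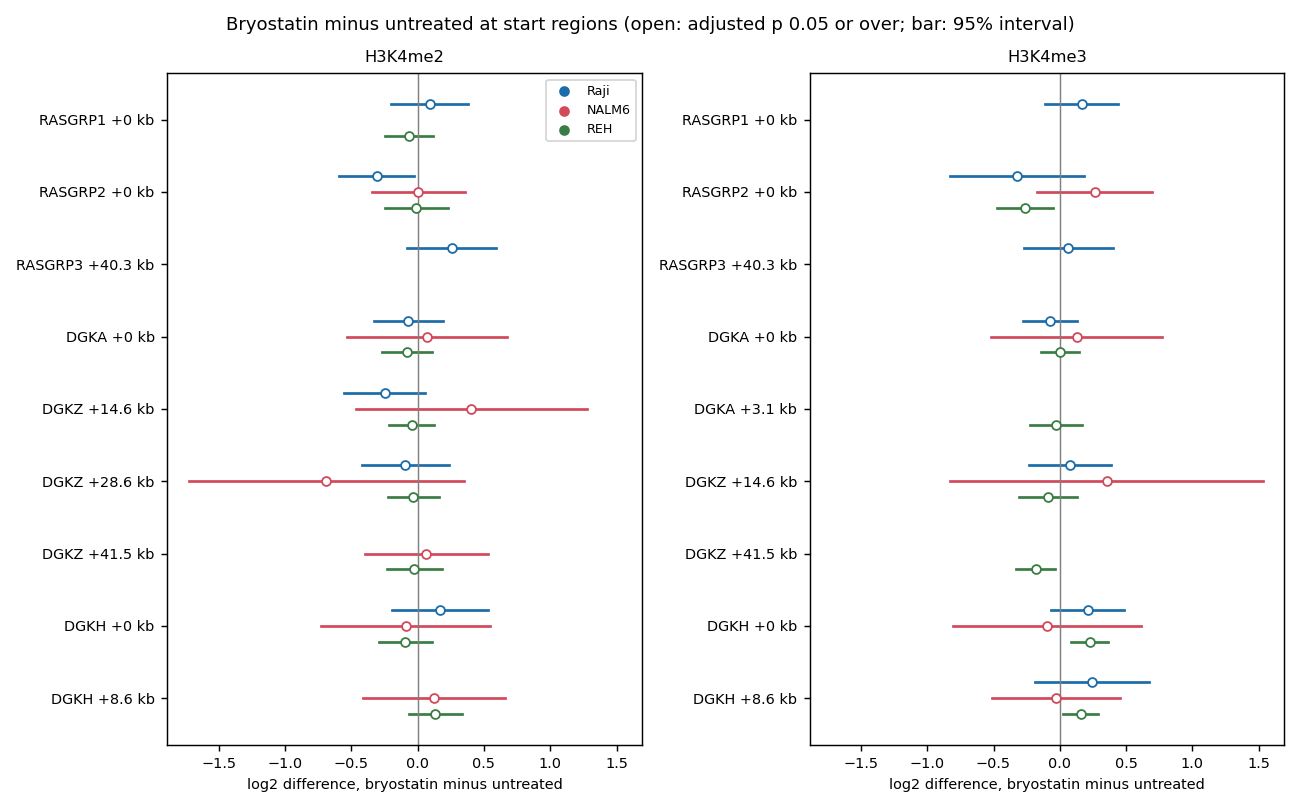
Log2 change with bryostatin for each start region of the 7 genes called in all 6 libraries of a line, with 95% intervals from limma, for H3K4me2 and H3K4me3. No region passed an adjusted p of 0.05, and the intervals are widest in NALM6, reaching -1.73 and 1.53.

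No start of the 7 genes gained or lost a peak in all replicates with bryostatin. For H3K4me2, 0 of the 7 genes went between 3 of 3 and 0 of 3 in Raji (0.0683% of all genes), NALM6 (0.73%) and REH (0.0796%). For H3K4me3 it was 0 in Raji (0.00913%), NALM6 (0%) and REH (0%), and for H3K27me3 0 in Raji (0%), NALM6 (0.0177%) and REH (0.101%). Over whole genes, H3K4me2 of RASGRP2 was lower with bryostatin in every replicate in Raji, with means of 1.92 and 2.55 (9.14% of all genes did not overlap). It was also lower in NALM6, with means of 2.59 and 2.95 (7.09%). These sums hold only the part of a peak inside the gene. The whole start region of RASGRP2 in NALM6 overlapped between treatments, at 0.0036 (SE 0.15, limma adjusted p = 0.999). Over its whole gene, RASGRP1 H3K4me2 was lower in REH, with means of 0.670 and 0.717 (9.39%). H3K4me3 over genes separated the treatments for 0 genes in Raji (9.65%) and NALM6 (3.81%) and for 2 in REH (10.6%), with DGKH higher, 1.88 against 1.63, and RASGRP2 lower, 2.07 against 2.49. H3K27me3 did so for 0 genes in Raji (0%), NALM6 (0.108%) and REH (0.41%). Both H3K27me3 counts for Raji were also 0 without untreated replicate 2 (0% of all genes). Each of these whole-gene differences has the smallest p that the exact permutation test allows, 0.1, and an exact test over 3 pairs could not go below 0.25.

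Whether the lines responded differently was tested as an interaction in limma over 12 libraries, and 0 member regions passed in any pair. For H3K4me2 this was 0 of 6 between Raji and REH (0.0275% of all regions), 0 of 7 between NALM6 and REH (0%) and 0 of 5 between Raji and NALM6 (0%). For H3K4me3 it was 0 of 5 (0.0776%), 0 of 6 (0%) and 0 of 5 (0%). The NALM6 and REH fits include the DGKZ region at the start of MDK. In the 4 fits without a call over all regions, 33 to 106 regions had an unadjusted limma p under the threshold.

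The other genes of the pathway were read from lists of 7 other diacylglycerol kinases, 15 other C1 domain genes and 19 genes of diacylglycerol production and the RAS cascade. With bryostatin only DGKD, the delta isoform of the kinases, passed, in REH. Its H3K4me2 at chr2:233417691-233422940 was 0.541, 0.533 and 0.546 without and 1.25, 0.881 and 1.18 with bryostatin, a rise of 1.01 (SE 0.13, limma adjusted p = 0.00072, or 0.00020 with the replicate block). Its H3K4me3 passed at another start region, chr2:233352841-233358760, with 1.19, 1.17 and 0.959 without and 1.59, 1.53 and 1.63 with bryostatin, a rise of 0.52 (SE 0.08, limma adjusted p = 0.0067, or 0.0047 with the block). Treated libraries lay above untreated ones in both regions. These were 1 of 6 and 1 of 4 regions of the other kinases tested in REH, where 1.45% and 1.67% of all regions passed. Counts of 1 region are too few to set apart from these shares. The list medians were 0.06 and 0.02 against -0.0193 and -0.00113 over all regions. In the same REH fits 0 of 12 and 0 of 6 regions of the C1 domain list passed. For the production and RAS cascade list it was 0 of 19 and 0 of 18. The calls did not pass with the maximum signal (adjusted p = 0.069 and 0.136) or with the mean signal per called base, under which the H3K4me2 change was -0.06 (adjusted p = 0.983 and 0.956), and the H3K4me3 call did not pass without REH bryostatin replicate 1 (0.063) or 3 (0.064) or without centring (0.088).

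Between untreated Raji and REH, 3 of the 7 other kinases had an H3K4me3 start region called in all 6 libraries, and all 3 regions were lower in Raji, with a median of -1.62 against -0.02 over all regions. Of all regions, 51.3% passed in this fit, and counts of this size cannot be set apart from that share. DGKE, the epsilon isoform, differed by -2.55 (SE 0.14, limma adjusted p = 7.9e-07), DGKQ, the theta isoform, by -1.62 (SE 0.15, adjusted p = 1.8e-05) and DGKD by -0.59 (SE 0.21, adjusted p = 0.039). The C1 domain genes went both ways, with 3 of 6 regions higher and 3 lower and a median of 0.12. PRKCD, a diacylglycerol-dependent protein kinase C that needs no calcium, was higher in Raji by 2.27 (SE 0.08), PRKCB by 0.70 and PRKD3 by 0.62, while PRKCA was lower by -0.85. Of 17 regions of the production and RAS cascade list, 5 were higher and 4 lower with a median of -0.09, among them NF1 at -0.65, PLCG1 at -0.58 and PLCG2 at 0.51.

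In H3K4me2 between Raji and REH, where 46.8% of all regions passed, 1 region of the other kinases was higher and 2 lower of 4 (median -0.81 against 0.00247 over all), with DGKE at -1.56, DGKQ at -1.40 and DGKD at 0.99. This is the DGKD region that rose with bryostatin in REH, and both comparisons use the same untreated REH libraries. The C1 domain genes had 2 higher and 3 lower of 6, with PRKCD at 3.10, PRKCA at -0.77, PRKD2 at -0.71 and PRKD3 at 0.66. The production and RAS cascade list had 6 higher and 3 lower of 19, among them RASA3 at -2.67, PLCG2 at 1.08 and PLCG1 at 0.53. DGKE was also lower in Raji than in NALM6, by -2.95 in H3K4me3 and -1.60 in H3K4me2, and PRKCD higher, by 1.18 and 1.91. Which genes of a list could be tested depended on a call in all 6 libraries.

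Genes whose H3K4me2 start signal was most like that of a member over the 18 libraries were named by Pearson r on log2(1 + start signal), as a description over libraries that share lines and depth. For RASGRP1 these were PALLD (r = 0.978) and FBXO10 (r = 0.974), both with a peak in 6 Raji, 6 REH and 0 NALM6 libraries. For RASGRP3 they were PRDM2 (r = 0.961) and RGS20 (r = 0.95). PRDM2 had a peak in 6 libraries of every line, unlike RASGRP3, and RGS20 in 5 Raji libraries and no other. For RASGRP4 they were CFAP74 (r = 0.995) and NOVA1 (r = 0.994), each with a peak in 5 REH libraries. There were 163, 154 and 150 genes at r of 0.9 or more, respectively, so signal patterns this alike were found at many genes.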

How the data were processed

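H3K4me2, H3K4me3 and H3K27me3 were profiled by Cut&Tag in 54 libraries of 18 groups. Reads were trimmed (TrimGalore) and aligned (Bowtie2, hg38) by the authors, who scaled coverage as RPKM, in bins of 10 bp, and ran the peak caller SEACR on each library. The libraries of NALM6 replicate 1 have peak edges off this 10 bp grid, so their bins and scaling are not known. The deposited signal values are the sum and the maximum of that coverage over each stringent peak, computed by the authors per library with no pooling. They are no read counts, so no count model was used. The authors' DESeq2 comparisons were not used, and 0 columns of per-sample values were left out. The peak ends fit within the chromosomes of hg38.

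Peaks of the libraries compared were merged into regions where they overlap. The log2 summed total signal of regions called in every library was centred on each library's median. Groups were compared in limma 3.58.1 under R 4.3.3, using the eBayes trend option, and p-values were adjusted over all regions by Benjamini-Hochberg at a threshold of 0.05. Region overlaps used GenomicRanges 1.54.1, tables used pandas 2.3.3 and numpy 2.4.6 in Python 3.11.15, and figures were drawn with matplotlib 3.10.9. Start windows were 1 kb to each side of GENCODE 44 starts. Sums over genes were compared by an exact permutation test, two-sided. The limma steps were tested on simulated data. Limits of a peak list: depth sets how many peaks are called, and a region's summed signal grows with its called length.

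The labels give replicate numbers to every group. Same-numbered libraries deviated together in all 3 pairs, with correlations over 0.1, in 5 of the 6 treatment comparisons, so the numbers were taken as pairs there, and not for H3K4me2 in Raji or between lines. In NALM6, unlike-numbered libraries also correlated, up to 0.406 for H3K4me2 and 0.565 for H3K4me3. The lowest same-numbered values there were 0.402 and 0.634, so the NALM6 numbers are not shown to mark paired cultures. Printed standard errors, intervals and p-values come from the fits without the block unless the block is named. The 7 genes, the pathway lists and the markers were chosen with earlier results of these data known. All 7 genes are described. A gene of a pathway list is named where a start region passed in a comparison, up to 4 per list by size of change, except that some listed genes are not reported here by name, and likeness is given for genes marked in 3 to 15 of 18 H3K4me2 libraries. Alternatives varied the signal measure, centring, quantile normalization, region filters, eBayes trend, window, overlap, number of peaks, transcript type, replicate block and each library. Treated libraries for the line comparisons, the removal of an H3K27me3 library and of the DGKZ signal at the start of MDK were added after seeing the data.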

Additional observations from a re-analysis of the deposited data

Results flagged for a closer look

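RASGRP2 H3K4me3 was the single result picked out for a difference in response between lines. With bryostatin the region at its start was higher in all 3 treated NALM6 libraries than in the untreated ones, by 0.26 on the log2 scale, and lower in all 3 treated REH libraries, by -0.26. In the limma interaction over 12 libraries the difference between the lines was 0.51 in size (SE 0.16), and it did not pass (limma, Benjamini-Hochberg adjusted p = 0.9995). NALM6 replicate 1 carries another signal scaling than replicates 2 and 3.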

How the results depend on the processing

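Of 425 recomputed counts, 391 stayed within 1.5 times the reported count or at the same count. The 425 include all fits of bryostatin and of a difference in response, where the count was 0 throughout. The 391 therefore does not measure how stable the line differences were. The recomputed counts below are given without the number of member regions or genes tested and without the share over all of them. They are therefore not set apart from such a share. Of 175 recomputed values of single start regions 148 kept their direction and their side of the threshold, 25 no longer passed and 2 changed sign. Under every alternative and with each library left out, 0 start regions of the 7 genes passed with bryostatin or for a difference in response between lines. In fits with the replicate block, counts were 0 in all treatment fits and 5, 0, 0, 3, 0 and 3 for the line differences, so the pairing changed no call on the 7 genes. Over all regions the block moved the calls with bryostatin to 305 for H3K4me2 in REH and to 132 and 202 for H3K4me3 in Raji and REH. For the H3K4me2 difference between Raji and REH, 5 as reported, the count was 1 with the maximum signal, 0 with the mean signal per called base, 8 with regions called in at least 3 of 6 libraries, 3 without the eBayes trend and 3 to 5 with a library left out. Between NALM6 and REH, 0 as reported, it was 3 with the wider set of regions, 2 without NALM6 replicate 1 and 0 to 2 with a library left out. Between Raji and NALM6, 0 as reported, it was 4 with the wider set, 3 without NALM6 replicate 1, 3 with treated libraries and 0 to 3 with a library left out. For H3K4me3 between Raji and REH, 3 as reported, it was 6 with the wider set, 1 in the upper 0.5 of regions by signal, where fewer regions were tested, and 3 to 5 with a library left out. Between NALM6 and REH, 0 as reported, it was 1 without NALM6 replicate 1 and 0 to 1 with a library left out. Between Raji and NALM6, 3 as reported, it was 0 without centring, 6 with the wider set, 1 in the upper 0.5 of regions, 5 without NALM6 replicate 1 and 2 to 5 with a library left out. The 2 sign changes were DGKZ at +28.6 kb, 0.21 with the maximum signal, and RASGRP1, -0.0749 with the mean signal per called base, both H3K4me2 in Raji against REH. Start peaks in 3 of 3 against 0 of 3 libraries gave 4 calls for H3K4me2 over the comparisons, all of RASGRP1 or RASGRP4. They gave 2 calls for H3K4me3, of RASGRP1 and RASGRP3. These calls were 2 and 0 in the upper 0.5 of peaks, and 2 for H3K4me2 when every library gave an equal number of peaks. Comparisons that share a line use the same untreated libraries. The 26 pairs of a gene and a library with H3K27me3 fell to 1 with equal numbers of peaks and to 20 without Raji untreated replicate 2. Separated sums over genes, 12 for H3K4me3 and 1 for H3K27me3, were 6 and 0 by called length, and 2 for H3K27me3 by maximum signal. With a library left out they were 15 to 20 for H3K4me2, 12 to 17 for H3K4me3 and 1 to 6 for H3K27me3, where 6 came without Raji untreated replicate 1, which held 819 peaks. These counts are summed over line and treatment comparisons. Groups of 2 against 3 libraries fail to overlap more readily than 3 against 3, so a higher count there cannot be read as a stronger difference. Apart from smaller sets of regions, peaks or libraries, the cause of these shifts was not tested.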
